A study of Homo sapiens with 12 samples.

Results

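The 10 genes described here, CCND1, CCND2, CCND3, CDK4, CDK6, CCNE1, CCNE2, CDK2, CDKN1B and RB1, encode the G1 cyclins, their kinases, the kinase inhibitor p27 and the retinoblastoma protein. They were chosen by gene name, and each name matched 1 of the 61782 rows of the deposited tables, so that 10 rows of 61782 are reported. None of the 10 rows was joined with an overlapping gene.

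RNA held by Argonaute 2 (AGO2), the protein that carries a microRNA (miRNA) to its target messages, was precipitated from K562 cells and sequenced, to find mRNAs bound in the presence of miR-143. K562 is a human erythroleukemia line with a BCR-ABL fusion, and the methods name its derivative K562-C/EBPα-ER (the labels only K562), which carries an estradiol-inducible form of the granulocytic factor C/EBPα. The 12 samples fall into 4 groups of 3: control_IgG and control_AGO from cells with the lentiviral vector pLV-control, and miR143_IgG and miR143_AGO from cells with pLV-miR-143, each precipitated with unspecific immunoglobulin (IgG) or with an antibody to AGO2. Per the labels, all 4 groups came from transduced populations selected with puromycin, although the methods grew K562-C/EBPα-ER cells in puromycin in any case. No source used here states a cloning step or that C/EBPα was induced. The values are the authors' average of each group in FPKM, the number of fragments relative to transcript length and to the mapped total, so there was 1 value per gene and group, no replicate check and no test for any difference below.

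In G1, mitogens raise the D-type cyclins, which activate CDK4 and CDK6. These kinases begin to phosphorylate the retinoblastoma protein, E2F factors are released, and E2F raises the E-type cyclins, which activate CDK2 and complete the passage into S phase. Many messages of this circuit are textbook targets of miRNAs, among them the D-type cyclins for the miR-15/16 family and CDKN1B for miR-221 and miR-222.

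FPKM depends on what else a precipitate holds, and the precipitates differed. Rows of 1 name that matched a protein-coding gene took between 7.90% and 8.38% of summed FPKM in the IgG groups and between 37.2% and 42.0% in the AGO groups. Joined and unmatched rows were not counted as coding. The sum includes the row of the MIR143 gene, which held 118393 of 411417 FPKM in miR143_AGO. For control_AGO the sum was 368552 FPKM. IgG precipitates had larger sums, 2.83e+06 FPKM for control cells and 2.60e+06 FPKM for miR-143 cells. Despite the smaller coding share, summed coding FPKM was thus higher with IgG. Scaling to the same coding sum raised the log2 ratio of AGO over IgG, by up to 0.53 in control and 0.51 in miR-143 cells. The smallest FPKM times transcript length that a group could show, its low edge, exceeded that of miR143_AGO 12.8 times in control_IgG and at most 1.67 times in the other groups, so low values in control_IgG rest on fewer fragments. The row of the MIR143 gene checks the vectors: both control groups listed it at 0, and both miR-143 groups had 44781 FPKM or more. At least 10 of 11 K562 markers were at 1 FPKM or more in each group, with summed levels of 502 to 1080 FPKM. The globin markers HBG1, HBG2 and HBE1 share 1 joined row, which was added once. Of 11 markers of other cells, between 8 and 11 were listed at 0, and their highest value was 8.28 FPKM for the epithelial gene EPCAM in miR143_IgG. In bulk precipitates, less RNA per cell and fewer cells that express a gene cannot be told apart.

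For a gene to be held by AGO2 through a miRNA, the message usually carries a stretch complementary to the miRNA seed, bases 2 to 8 from the 5′ end. The mature sequences of miR-143-3p, which the vector supplies, and of 3 miRNAs with matches in CCND3, CCNE1, CDKN1B and CDK2 are shown first, with the seed in capitals. They are from RefSeq on GRCh38, and the levels of these miRNAs were not measured here. miR-143-3p lies at chr5:149428978-149428998 (plus strand), 1 locus of miR-16-5p at chr13:50049027-50049048 (minus strand), miR-221-3p at chrX:45746180-45746202 (minus strand) and miR-29a-3p at chr7:130876748-130876769 (minus strand).
miR-143-3p: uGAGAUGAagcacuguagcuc
miR-16-5p: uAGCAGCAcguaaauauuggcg
miR-221-3p: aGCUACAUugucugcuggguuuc
miR-29a-3p: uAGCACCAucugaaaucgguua

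The longest 3′ untranslated region (3′ UTR) of each member in GENCODE release 29 (GRCh38) was searched on the transcript strand for the perfect match to bases 2 to 8 of 10 miRNAs. The letters searched were TCATCTC for miR-143-3p, CTACCTC for let-7a-5p, TGCTGCT for miR-16-5p, GCACTTT for miR-17-5p, TTTGCAC for miR-19b-3p, TACTTGA for miR-26a-5p, CACTGCC for miR-34a-5p, GTGCAAT for miR-92a-3p, ATGTAGC for miR-221-3p and TGGTGCT for miR-29a-3p. TTTGCAC and GCACTTT share the letters GCAC and can overlap. A match describes the sequence and does not show that the miRNA binds there.

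The matches below, in capitals in the transcript's direction, are in the exonic 3′ UTR of the gene named. Not shown are the matches for miR-16-5p in CCND1, CCND2 and CDK6, and those for miR-221-3p and miR-29a-3p in CCND2 and CDK6. Shown are the match for miR-143-3p in CCND2 and those in CCND3, CCNE1, CDKN1B and CDK2 that belong to the miRNAs above. The first is at chr12:4302491-4302511 (plus strand), the CCND3 window at chr6:41935319-41935340 (minus strand), the CCNE1 windows at chr19:29824010-29824031 and chr19:29824248-29824269 (plus strand), the CDKN1B windows at chr12:12721213-12721235 and chr12:12721286-12721308 (plus strand), and the CDK2 window at chr12:55972037-55972058 (plus strand).
CCND2, miR-143-3p: cttgtgtttaggaTCATCTCt
CCND3, miR-16-5p: gtgattgacagcttTGCTGCTg
CCNE1, miR-16-5p, site 1: gtgcgtgctcccgaTGCTGCTa
CCNE1, miR-16-5p, site 2: aactgttttgtaagTGCTGCTa
CDKN1B, miR-221-3p, site 1: ctctaaaagcgttggATGTAGCa
CDKN1B, miR-221-3p, site 2: tagtttttaccttttATGTAGCa
CDK2, miR-29a-3p: agcgggggctaagtTGGTGCTt

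The D-type cyclins are the regulatory subunits that couple growth signals to CDK4 and CDK6. CCND3 (chr6:41934933-42050357, minus strand) was at 42.4 FPKM with IgG and 244.0 FPKM with AGO in control cells, and at 36.4 FPKM with IgG and 137 FPKM with AGO in miR-143 cells. Both AGO values were above both IgG values. Its log2 ratio of AGO over IgG, taken of FPKM + 1, was 2.50 in control and 1.88 in miR-143 cells, and the plain ratios were 5.75 and 3.76. A ratio as high or higher was found in 9.71% of all rows compared in control and 10.5% in miR-143 cells. CCND3 had the highest level of the 10 genes in both AGO groups, and its 3′ UTR of 1007 bases held 1 match, the one for miR-16-5p shown above. By comparison, 17.0% of genes with a 3′ UTR of like length (80% to 125%) held that match.

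CCND1 (chr11:69641087-69654474, plus strand) was at 8.89 FPKM with IgG and 8.26 FPKM with AGO in control cells, and at 2.76 FPKM with IgG and 4.34 FPKM with AGO in miR-143 cells. It was lower in both groups of miR-143 cells than in both groups of control cells. The log2 ratio of miR-143 over control was −0.79 between the AGO groups and −1.39 between the IgG groups, and AGO over IgG gave −0.09 in control and 0.50 in miR-143 cells. Its 3′ UTR of 3192 bases held matches for 3 of the 10 miRNAs and none for miR-143-3p.

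CCND2 (chr12:4273772-4305350, plus strand) was at 5.39 FPKM with IgG and 12.4 FPKM with AGO in control cells, and at 7.87 FPKM with IgG and 9.74 FPKM with AGO in miR-143 cells. It was higher with AGO than with IgG in both cell populations, with a log2 ratio of 1.07 in control and 0.27 in miR-143 cells. CCND2 was the member with a match for bases 2 to 8 of miR-143-3p. Between the AGO groups its log2 ratio of miR-143 over control was −0.32, so its level in the AGO precipitate was slightly lower with the miR-143 vector. The 3′ UTR of 5341 bases held matches for 7 of the 10 miRNAs, the most of any member. A match for miR-143-3p was held by 37.3% of genes with a 3′ UTR of like length and by 12.6% of all genes. A shorter form of the site, bases 2 to 7 followed by an A (searched after the other values had been seen), was found once each in CDK6 and RB1 and in no other member.

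The make-up of the D-type cyclins within a group does not depend on how groups are scaled to each other. CCND3 was 74.8% of the summed FPKM of the 3 cyclins in control_IgG and 92.2% in control_AGO, and 77.4% and 90.7% in the corresponding groups of miR-143 cells. The CCND1 share was 15.7%, 3.12%, 5.87% and 2.87% in control_IgG, control_AGO, miR143_IgG and miR143_AGO. In both populations the AGO precipitate thus held relatively more CCND3 and relatively less of the other D-type cyclins than the IgG precipitate.

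**Figure D1:**
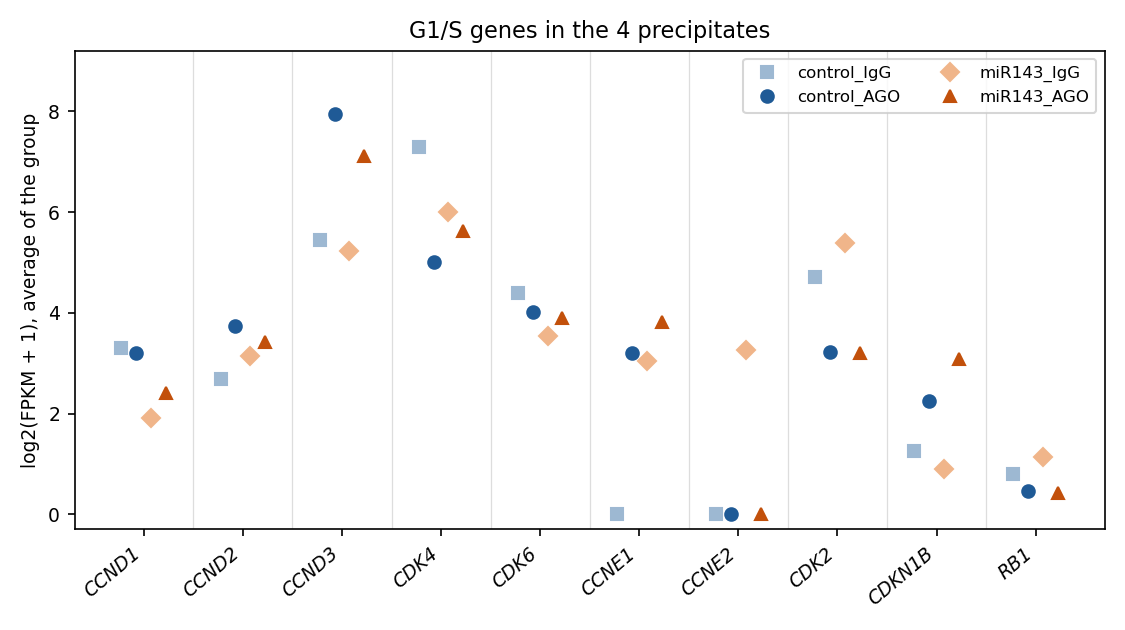
Average FPKM of the 10 genes in the 4 groups, as log2(FPKM + 1) on the vertical axis, with 1 symbol per group and no error bars because only averages were analysed. CCND3 was highest in the AGO groups (244.0 and 137 FPKM), CDK4 was highest in control_IgG (156 FPKM), and CCNE2 was above 0 in miR143_IgG only.

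CDK4 and CDK6 are the kinases that the D-type cyclins activate. CDK4 (chr12:57747727-57756013, minus strand) was at 156 FPKM with IgG and 31.1 FPKM with AGO in control cells, and at 62.7 FPKM with IgG and 48.2 FPKM with AGO in miR-143 cells. The control_IgG value stood apart, 2.49 times above the next group. The log2 ratio of AGO over IgG was −2.29 in control cells, a plain level 5.03 times lower with AGO, and −0.37 in miR-143 cells. Of all rows compared in control cells, 14.7% were as low or lower. Between the AGO groups CDK4 had a log2 ratio of 0.62 and between the IgG groups −1.31. CDK4 was the member without any match: none of the 10 motifs was found in its 3′ UTR of 798 bases.

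CDK6 (chr7:92604921-92836594, minus strand) was at 19.9 FPKM with IgG and 15.1 FPKM with AGO in control cells, and at 10.6 FPKM with IgG and 14.0 FPKM with AGO in miR-143 cells. Its highest value was 1.89 times its lowest, the narrowest range of the 8 members above 0 in every group. The log2 ratio of AGO over IgG was −0.38 in control and 0.37 in miR-143 cells. CDK6 has a 3′ UTR of 10219 bases, a length reached by 0.750% of genes, against a median of 987 bases over 19068 genes. It held 10 matches for 6 of the 10 miRNAs, or 0.979 per kilobase, and 71.1% of genes with 3′ UTRs of like length also held a match for miR-16-5p.

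The ratio of CCND3 to CDK4 within a group was 0.272 in control_IgG and 7.85 in control_AGO, and 0.582 in miR143_IgG and 2.84 in miR143_AGO. The message of the kinase was the more abundant one in both IgG groups, and the message of the cyclin in both AGO groups. CDK4 exceeded CDK6 in all 4 groups, by 7.84, 2.06, 5.94 and 3.46 times in control_IgG, control_AGO, miR143_IgG and miR143_AGO.

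The E-type cyclins activate CDK2 at the entry into S phase. CCNE1 (chr19:29811898-29824308, plus strand) was listed at 0 with IgG and at 8.14 FPKM with AGO in control cells, and at 7.30 FPKM with IgG and 13.1 FPKM with AGO in miR-143 cells. Given the low edge of control_IgG, which for this transcript corresponds to 0.345 FPKM, the other values were far above what that group could show. No fold is given against the group at 0. AGO over IgG gave a log2 ratio of 0.77 in miR-143 cells and between the AGO groups miR-143 over control gave 0.63. Its 3′ UTR of 531 bases was the shortest of the members and the densest in matches, with 3 in all or 5.65 per kilobase. It held the match for miR-16-5p at 2 places, each followed by an A, while 9.97% of genes with a 3′ UTR of like length held it at all.

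CCNE2 (chr8:94879770-94896678, minus strand) was listed at 0 in control_IgG, control_AGO and miR143_AGO and was at 8.59 FPKM in miR143_IgG. A single group thus carried all of its signal, and that group was a mock precipitate. CCNE2 held matches for miR-34a-5p and miR-92a-3p, 1 each.

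CDK2 (chr12:55966769-55972784, plus strand) was at 25.01 FPKM with IgG and 8.39 FPKM with AGO in control cells, and at 40.7 FPKM with IgG and 8.26 FPKM with AGO in miR-143 cells. Both IgG values were above both AGO values, and the AGO values differed little. The log2 ratio of AGO over IgG was −1.47 in control and −2.17 in miR-143 cells, and the plain levels were 2.98 and 4.93 times lower with AGO. Of all rows compared, 27.1% were as low or lower in control and 12.6% in miR-143 cells. Among the 3 kinases, the share of CDK2 went from 35.7% of summed FPKM in miR143_IgG to 11.7% in miR143_AGO, but from 12.4% in control_IgG to 15.4% in control_AGO. The match for miR-29a-3p was the one found in its 3′ UTR of 1159 bases, and 11.1% of genes of like length held it.

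**Figure D2:**
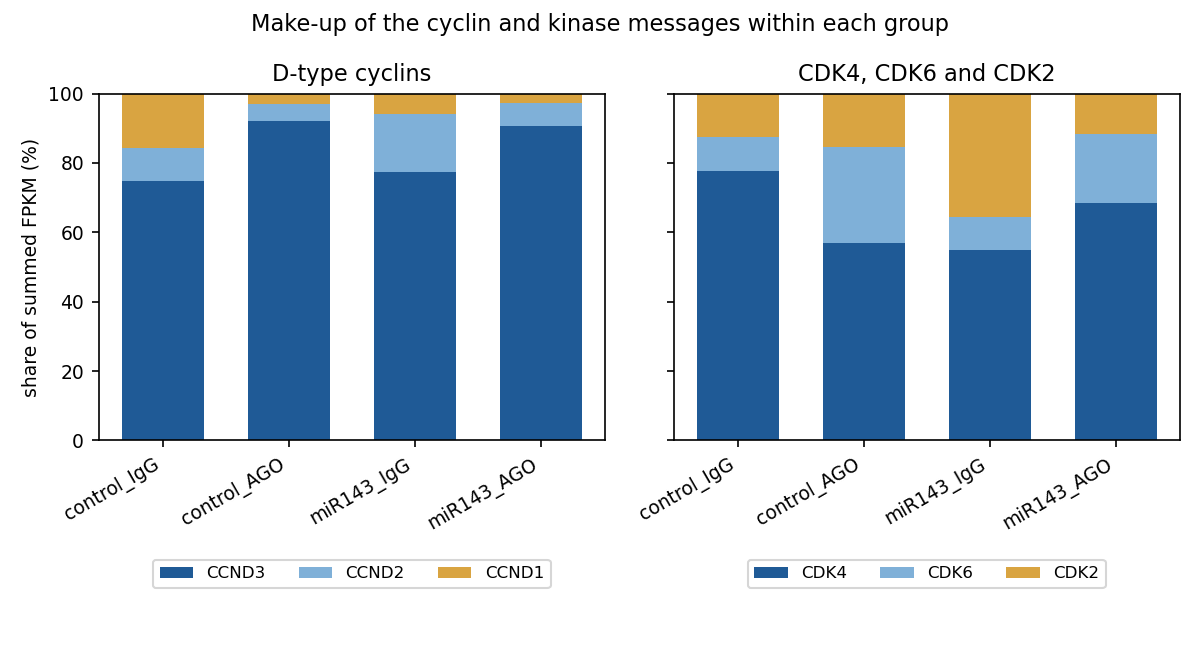
Share of summed FPKM (percent) that each D-type cyclin (left) and each of CDK4, CDK6 and CDK2 (right) made up within a group. CCND3 made up 92.2% and 90.7% of the D-type cyclins in the AGO groups and 74.8% and 77.4% in the IgG groups, and CDK2 had its largest share of the kinases (35.7%) in miR143_IgG.

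CDKN1B (chr12:12715058-12722371, plus strand) encodes p27, which inhibits cyclin E-CDK2 and helps to assemble cyclin D-CDK4. It was at 1.39 FPKM with IgG and 3.75 FPKM with AGO in control cells, and at 0.877 FPKM with IgG and 7.46 FPKM with AGO in miR-143 cells. Both AGO values were above both IgG values, and the highest was in the AGO precipitate of miR-143 cells. The log2 ratio of AGO over IgG was 0.99 in control and 2.17 in miR-143 cells, with plain ratios of 2.69 and 8.50. Of all rows compared, 34.6% were as high or higher in control and 7.42% in miR-143 cells. The value in control_IgG was 5.25 times the low edge of that group, so the ratio in control cells divides by few fragments. Between the AGO groups its log2 ratio was 0.83, the highest of the members, and the plain ratio was 1.99.

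The 3′ UTR of CDKN1B, 1344 bases long, held the match for miR-221-3p at 2 places (positions 201 and 274), each followed by an A, and 1 match for miR-34a-5p. A match for miR-221-3p was held by 7.75% of all genes and by 6.37% of those with a 3′ UTR of like length. The shortest 3′ UTR annotated for the gene, of 261 bases, also held this match at 2 places. Whether these are the same sites was not checked. Of the other members, CCNE2 had 1 match in its shortest 3′ UTR. The shortest 3′ UTR of CDK6 was as long as its longest, 10219 bases, so its matches could not differ. CDKN1B had no match for miR-143-3p in either form searched.

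The level of CDK2 relative to that of its inhibitor was 18.0 and 46.4 in the IgG precipitates of control and miR-143 cells, and 2.24 and 1.11 in their AGO precipitates. Both precipitates made with the AGO2 antibody thus held more nearly equal levels of the CDK2 and CDKN1B messages than the mock precipitates.

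RB1 (chr13:48303726-48599436, plus strand) encodes the retinoblastoma protein, the substrate of these kinases. Its message had the lowest mean level of the 10, and was at 0.735 FPKM with IgG and 0.373 FPKM with AGO in control cells, and at 1.2 FPKM with IgG and 0.336 FPKM with AGO in miR-143 cells. Both IgG values were above both AGO values, although the one in control_IgG was only 5.0 times the low edge of that group. With the miR-143 vector, AGO over IgG gave a log2 ratio of −0.72 and the plain level was 3.56 times lower with AGO. In control cells both groups were under 1 FPKM and were not compared. RB1 held 1 match each for miR-17-5p and miR-26a-5p.

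**Figure D3:**
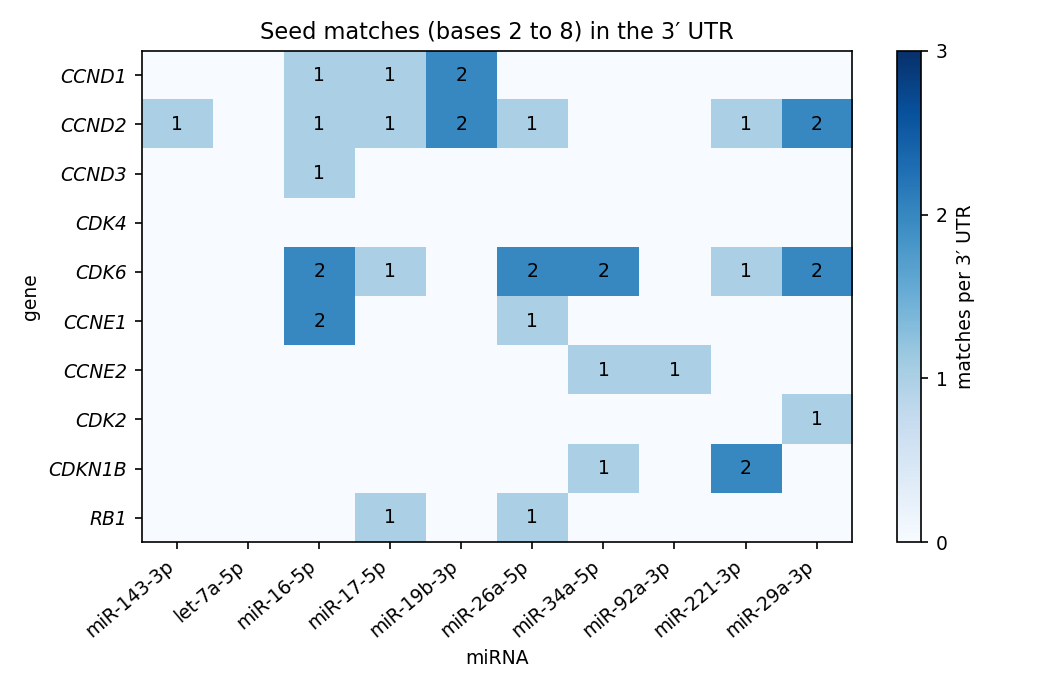
Number of matches to bases 2 to 8 of 10 miRNAs (columns) in the 3′ UTRs of the 10 genes (rows), printed in each cell and shown by its colour. CCND2 held matches for 7 miRNAs and CDK6 for 6, CDK4 held none, and CCND2 was the gene with a match for miR-143-3p.

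Over the members, miR-16-5p had matches in 5 of 10 genes, miR-17-5p and miR-26a-5p in 4 each, miR-34a-5p, miR-221-3p and miR-29a-3p in 3 each, miR-19b-3p in 2, miR-143-3p and miR-92a-3p in 1 each and let-7a-5p in none. Over all 3′ UTRs, matches were held by 20.6% of genes for miR-16-5p, 20.4% for miR-17-5p, 15.0% for miR-34a-5p, 13.5% for miR-29a-3p and 13.0% for miR-19b-3p. The share was 12.6% for miR-143-3p, 11.1% for miR-26a-5p, 10.5% for miR-92a-3p, 9.13% for let-7a-5p and 7.75% for miR-221-3p. Long 3′ UTRs hold more matches, and 8 of the 10 members had a 3′ UTR above the median of 987 bases. Rows of genes with longer 3′ UTRs also had slightly higher ratios of AGO over IgG in control cells, less clearly so in miR-143 cells. Rows were split by 3′ UTR length into 4 sets of like size. From the shortest to the longest set, the median log2 ratio was −0.44, −0.22, 0.05 and 0.09 in control cells. In miR-143 cells it was −0.24, −0.11, −0.17 and −0.05, without a steady rise. There, 25.4% of rows in the shortest set and 25.9% in the longest were at least 2-fold higher with AGO.

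The comparison of AGO with IgG asks which messages the AGO2 antibody recovered beyond the mock precipitate. A row was compared when at least 1 of its groups reached 1 FPKM, and a member was counted as different at 2-fold. In control cells 8 of the 10 members were compared, and CCNE2 and RB1 were not. CCND2, CCND3 and CCNE1 were higher with AGO, CDK4 and CDK2 were lower, and CCND1, CDK6 and CDKN1B were within 2-fold. Of all 9919 rows compared, 34.5% were at least 2-fold higher and 36.2% at least 2-fold lower, so 3 of 8 and 2 of 8 are near the background. The median log2 ratio was 0.45 over the members and −0.19 over all rows. When groups were scaled to the same sum over coding genes, 4 members were higher (CDKN1B was added) and 1 lower (CDK2 was at −0.98), with 41.1% of all rows higher and 28.5% lower. CCND1 then changed sign to 0.38 and CDK6 to 0.12.

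In miR-143 cells all 10 members were compared. CCND3 and CDKN1B were at least 2-fold higher with AGO, CDK2 and CCNE2 were lower, and the other 6 were within 2-fold on the FPKM + 1 scale. RB1, at levels near 1 FPKM, was among the 6 but passed 2-fold with a pseudocount of 0.1, at a log2 ratio of −1.57. The background was 26.6% of 10643 rows higher and 33.5% lower, above the 2 of 10 members in each direction. Scaled to the same coding sum, 34.7% of all rows were higher and 25.5% lower, CCNE1 joined the higher members at a log2 ratio of 1.22, and CDK4 changed sign to 0.13. The median log2 ratio was 0.32 over the members and −0.22 over all rows.

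These comparisons share no group. Among the 8 members compared in both, 6 had the same sign, CCND3 was at least 2-fold higher in both and CDK2 at least 2-fold lower in both. Over the 8648 rows compared in both, 65.4% had the same sign, 15.0% were higher in both and 16.4% were lower in both.

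**Figure D4:**
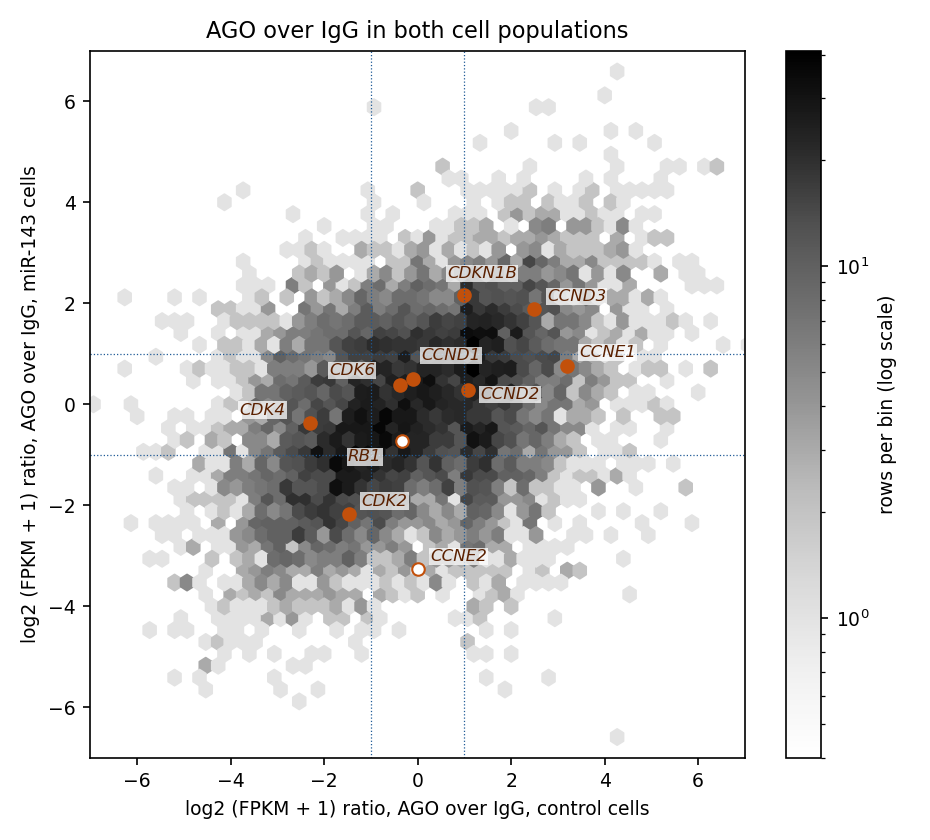
Log2 ratio of FPKM + 1, AGO over IgG, in control cells (horizontal axis) and in miR-143 cells (vertical axis), with the 10 genes as orange points over all rows (grey bins, darker with more rows, values beyond 7 on either side not drawn) and dotted lines at 2-fold. CCND3 lies in the upper right and CDK2 in the lower left, and open points mark RB1 and CCNE2, which were under 1 FPKM in both groups of control cells.

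The comparison of the AGO precipitates asks what the miR-143 vector changed in the RNA recovered with AGO2. None of the 8 members compared differed by 2-fold, whereas 17.7% of 9798 rows were at least 2-fold higher with miR-143 and 14.1% lower. The log2 ratios of the members ran from −0.83 for CCND3 to 0.83 for CDKN1B, with a median of −0.06 against 0.17 over all rows. CDK2 was at −0.02 (0.02 when scaled to the same upper quartile), CDK6 was at −0.11, and CDK4 and CCNE1 were higher with miR-143, at 0.62 and 0.63. The D-type cyclins were all lower with miR-143 and CDKN1B, CCNE1 and CDK4 were higher, but each by less than 2-fold and without a replicate check. Scaled to the same median over all rows, CCND3 passed 2-fold, at −1.01, with 15.4% of all rows higher and 16.8% lower.

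The IgG precipitates have no AGO2 selection. CCNE1 and CCNE2 were at least 2-fold higher in miR143_IgG than in control_IgG, where both were listed at 0, and CCND1 and CDK4 were lower, at −1.39 and −1.31. The background was 36.2% of 10172 rows higher and 26.8% lower. More rows differed between the mock precipitates than between the AGO precipitates, and control_IgG had the highest low edge of all groups. The part of that edge in these differences was not tested.

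The IgG-corrected effect, the AGO over IgG log2 ratio of miR-143 cells minus that of control cells, uses all 4 groups and so shares them with every comparison above. CDK4 and CDKN1B were at least 2-fold higher by this measure, at 1.92 and 1.18. CCNE1 and CCNE2 counted as lower, but each rests on groups at 0, where the size is set by the pseudocount, and no value is given. The background was 29% of 11914 rows higher and 33.5% lower. CDK4 had a single level that stood apart, the 156 FPKM in control_IgG, and CCNE2 the 8.59 FPKM in miR143_IgG, while CCNE1 was listed at 0 in control_IgG. The other 6 members were between −0.79 for CCND2 and 0.75 for CDK6. On the FPKM + 1 scale none of the 5 comparisons had a member that was 10-fold different, the threshold that the study chose, but this rests on the pseudocount for CCNE1 and CCNE2. With a pseudocount of 0.1, both passed 10-fold in the comparisons that set them against a group at 0. Over all rows the share past 10-fold on the FPKM + 1 scale was 9.36% (control cells) and 5.27% (miR-143 cells) for AGO over IgG, 1.03% between the AGO groups, 8.87% between the IgG groups and 10.3% for the IgG-corrected effect.

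The rest of the G1/S circuit was described through gene lists, whose counts are to be read against the shares over all rows given above (34.5% higher and 36.2% lower with AGO in control cells, 26.6% and 33.5% with miR-143). Of the 12 E2F factors, partners and pocket proteins, 10 were compared in control cells, of which 4 were at least 2-fold higher with AGO and 3 lower, with a median of 0.44. E2F1, the factor that RB restrains, was highest, at 1.03 FPKM with IgG and 34.0 FPKM with AGO in control cells, and at 0.793 FPKM with IgG and 26.1 FPKM with AGO in miR-143 cells. Its log2 ratio of AGO over IgG was 4.11 in control and 3.92 in miR-143 cells. TFDP1, a partner of the E2F factors, was lowest in control cells at −2.07 and TFDP2 in miR-143 cells at −2.91. In miR-143 cells 3 of the 11 compared were higher and 4 lower, with a median of −0.03.

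Of 7 other CDK inhibitors, 5 were compared in control cells, and 4 were higher with AGO and 1 lower, with a median of 2.55. That median rests on zeros, since CDKN1A, CDKN1C and CDKN2D were all listed at 0 in control_IgG. The name CDKN1C was held by 2 rows, of which the first was used. CDKN1A, which encodes p21, was highest, listed at 0 with IgG and at 10.2 FPKM with AGO in control cells, and at 0.525 FPKM with IgG and 7.23 FPKM with AGO in miR-143 cells, and CDKN3, a phosphatase that acts on CDK2, was lowest at −2.84. In miR-143 cells 3 were higher and 1 lower with a median of 1.78, from 2.43 for CDKN1A to −3.36 for CDKN2D. CDKN2A and CDKN2B, whose locus K562 cells are known to lack, were listed at 0 in all 4 groups. The inhibitors CDKN1A and CDKN1B were thus both higher with AGO than with IgG in both cell populations.

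Of the 4 factors that activate or fold the G1 kinases, 3 were lower with AGO in control cells and none higher, with a median of −2.0. The joined row with MNAT1 was lowest at −3.12 and CDC37, a chaperone partner that helps to fold CDK4, was highest at 0.12. In miR-143 cells 1 was lower (CDK7, the catalytic subunit of the CDK-activating kinase, at −1.21), and the median was −0.35. The name CDK7 was held by 2 rows, of which the first was used. Of 5 genes for the turnover of p27 and cyclin E, 1 was higher and 1 lower in control cells, with a median of −0.42, from 1.45 for FBXW7, which targets cyclin E, to −1.33 for the joined row with SKP1. In miR-143 cells none was higher and 3 were lower, with a median of −1.57, from 0.59 for SKP2, which targets p27, to −2.10 for its cofactor CKS1B.

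Of 17 S phase genes driven by E2F, 3 were higher with AGO and 7 lower in control cells, with a median of −0.78 against −0.19 over all rows, and the 7 of 17 are near the background of 36.2%. CDC25A, the phosphatase that activates CDK2, was highest at 2.91 and MCM4, a subunit of the replicative helicase, was lowest at −2.44. In miR-143 cells none was higher and 3 were lower, with a median of −0.38 and a range from 0.39 for MCM2 to −1.16 for CCNA2. Between the AGO groups 2 of the 17 were higher with miR-143 and 3 lower, against 17.7% and 14.1% of all rows in that comparison. The median was 0.03, and MCM4 was highest at 1.19.

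**Figure D5:**
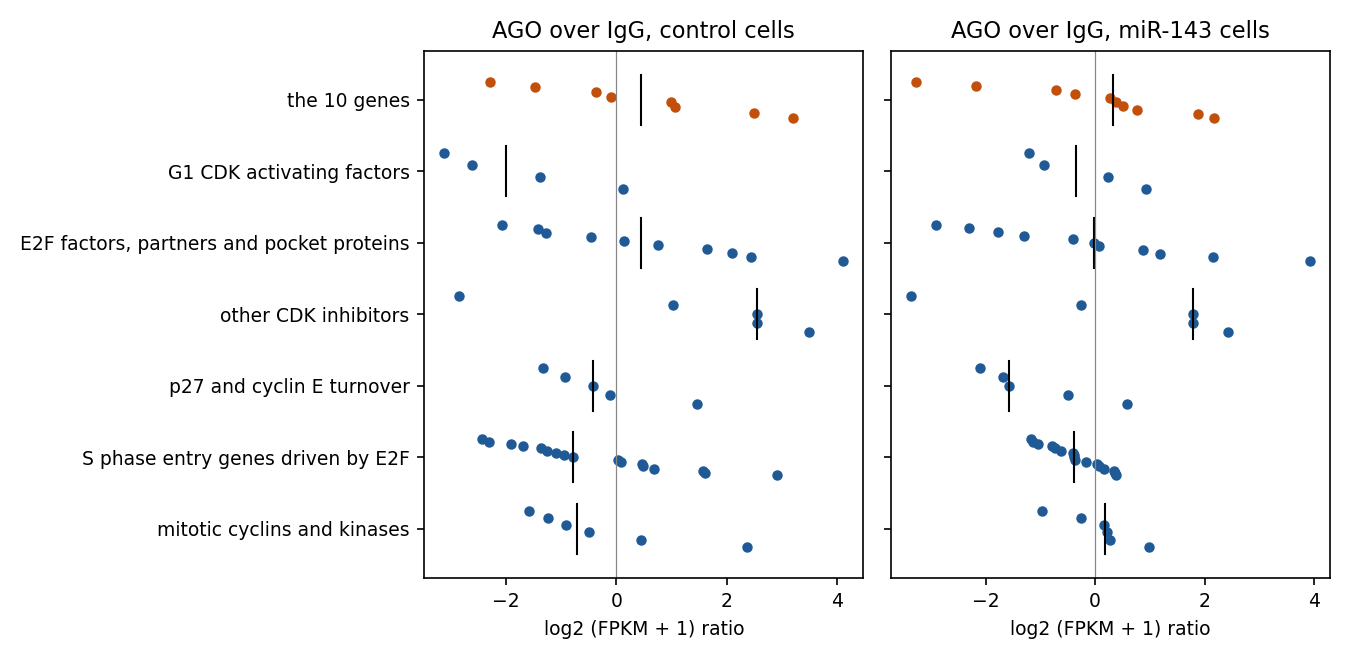
Log2 ratio of FPKM + 1, AGO over IgG, for the 10 genes (orange) and 6 lists of other cell cycle genes (blue) in control cells (left) and miR-143 cells (right), with 1 point per gene compared and a black bar at the median of each list. The 10 genes were spread on both sides of 0, and the median of the other CDK inhibitors in control cells (2.55) rests on genes listed at 0 in control_IgG.

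The genes most like CCND3 over the 4 groups, by the distance between log2(FPKM + 1) values, were PPM1F, DEDD2 and SQSTM1, at distances of 0.476, 0.839 and 0.998 among 4247 rows searched. PPM1F, which encodes a protein phosphatase, was at 56.6 FPKM with IgG and 209 FPKM with AGO in control cells, and at 39.3 FPKM with IgG and 134 FPKM with AGO in miR-143 cells. It matched CCND3 in the order of the groups. This likeness is over 4 averages that share their libraries and is a description.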

How the data were processed

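Per the labels and the methods of the study, reads were processed with TopHat and Cufflinks on hg38. The versions and the annotation are not given in the sources used here. The labels name rRNA removal and random priming, the methods a TruSeq RNA kit. The authors deposited 1 table of FPKM per group, each the average of 3 samples, and no further per-sample column was present (0 not used). The numbers of fragments are unknown. A test on replicates had been foreseen, and the form for averages was used. Log2 ratios of (FPKM + 1), which understate the change of low genes, were computed from the deposited values with Python 3.11.15 and pandas 2.3.3. They cover rows with 1 FPKM or more in a group compared. The calculation was run on copies of control_AGO with known changes added and no noise. That run checks the arithmetic only, not low rows, zeros or differences in depth. Groups came from the sample titles. The low edge is the 10th lowest FPKM times transcript length above 0, over genes with 1 transcript of at least 300 bases. The 3′ UTR was the longest among transcripts with at least 80% of the longest coding length in GENCODE 29. It may not be the authors' annotation. All 10 members matched GENCODE by symbol, as did 36262 of 59642 rows of 1 name.

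The members, lists and searches were chosen with earlier results of these data known. All members are named, and of each list the highest and the lowest gene of the comparison described. CDKN2A and CDKN2B were also named, since K562 cells are known to lack their locus, MIR143 and EPCAM as checks, and CDKN1C after its values had been seen. Some genes are not reported here by name. Alternatives were pseudocounts of 0.1 and 0.01, scaling to the same median, upper quartile or coding sum, a mean of 5 FPKM or more, leaving out joined rows and summing rows of 1 name.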

Additional observations from a re-analysis of the deposited data

How the results depend on the processing

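A log2 value was taken as unchanged within 1.5-fold (0.585) and a count within 1.5 times. Of 80 counts and medians recomputed under 8 alternatives, 74 were unchanged and 6 moved. With a mean of 5 FPKM or more, which leaves 6 or 7 members in these comparisons because low members drop out, the median of AGO over IgG in control cells was −0.24 and that between the IgG groups −0.54, both with a change of sign. The members at least 2-fold different then numbered 2 for AGO over IgG in miR-143 cells, 2 for the IgG-corrected effect and 2 between the IgG groups. The share over all rows was not computed with this filter, so these counts have no background. Scaled to the same median, 1 member (CCND3) was at least 2-fold lower between the AGO groups, where 15.4% of all rows were higher and 16.8% lower. Of 355 values of single members, 16 moved, all with pseudocounts of 0.1 or 0.01, for CCNE1, CCNE2, CDKN1B and RB1. Scaling shifted the log2 ratio of AGO over IgG by 0.36 to 0.53 in control cells and by 0.27 to 0.51 in miR-143 cells.

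No paired analysis was possible because each column holds 1 average per group without replicate numbers, and leaving out a replicate was not run for the same reason. The depth is unknown, so no counting interval is given. Low values of CDKN1B and RB1 in control_IgG lie within 5.25 times the low edge of that group and are the least certain of those above 0. CCNE1 and CCNE2 were listed at 0 there, and the size of their ratios against that group is set by the pseudocount.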

Other observations

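Mitotic genes act downstream of the G1/S transition. Of 6 mitotic cyclins and kinases, 1 was at least 2-fold higher with AGO in control cells and 2 were lower, against 34.5% and 36.2% of all rows. The median log2 ratio was −0.71, from 2.37 for CCNB1, the cyclin of mitotic entry, to −1.58 for its kinase CDK1. In miR-143 cells all 6 were within 2-fold, from 0.98 for AURKA to −0.97 for AURKB, while 26.6% of all rows were higher and 33.5% lower. Between the AGO groups all 6 had a positive log2 ratio of miR-143 over control, from 0.59 for CCNB1 to 1.58 for CDK1, with a median of 0.82, and 2 passed 2-fold. Over all rows 17.7% were at least 2-fold higher in that comparison and the median was 0.17, also positive. The share of all rows with a positive ratio was not computed. CDK1 was at 0.252 FPKM in control_AGO and 2.74 FPKM in miR143_AGO, both low levels.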
